A study of Mus musculus with 29 samples.

Results

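The genes described here are 10 nuclear receptors and coactivators that govern fuel use in heart muscle, out of 20411 genes in a count table of mouse hearts. They were chosen by name and not by a cut on measured values, but with earlier results of these data known. They are the peroxisome proliferator-activated receptors Ppara and Ppard, their dimer partner Rxrg, and the PGC-1 coactivators Ppargc1a and Ppargc1b. The others are the estrogen-related receptors Esrra, Esrrb and Esrrg, and the thyroid hormone receptors Thra and Thrb. All 10 had enough counts to be among the 12928 genes tested, and their lowest count in any library was 169, for Thrb. The hearts came from wildtype BALB/c mice, and the sources used here do not give their age. Every mouse had first received an adeno-associated virus whose Tbg promoter is active in hepatocytes, so the transgene was aimed at the liver and not at the heart that was measured. C26_REVERBa mice (10 hearts) had the REV-ERBα vector and then C26 colon tumour cells under the skin, C26_GFP mice (10 hearts) had the green fluorescent protein vector and C26 cells, PBS_REVERBa mice (5 hearts) had the REV-ERBα vector and saline, and PBS_GFP mice (4 hearts) had the green fluorescent protein vector and saline. The cells were given 10 days after the virus and are a model of cancer cachexia. Each library came from a separate animal, as the labels number them.

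The adult heart burns mainly fatty acids. PPARα and PPARδ bind fatty acid derivatives and, paired with a retinoid X receptor such as RXRγ, switch on genes for fatty acid uptake and oxidation. The estrogen-related receptors have no known natural hormone, and with PGC-1α and PGC-1β, coactivators that do not bind DNA themselves, they drive genes of the mitochondrial respiratory chain and the citric acid cycle. Thyroid hormone receptors set the adult pattern of contractile and ion channel genes.

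With a tumour, 4 of the 10 genes passed the test in GFP-vector hearts: Ppargc1b, Ppara and Rxrg were lower and Esrrb was higher, each by less than 1.5-fold. For comparison, 28.2% of all tested genes passed there, 14.2% higher and 14.0% lower. In REV-ERBα-vector hearts the tumour difference passed for Ppargc1b (lower) and Esrrb (higher), beside 7.23% of all tested genes (4.05% higher, 3.19% lower). None of the 10 passed for the REV-ERBα vector, with or without a tumour. Values are counts scaled to library size (CPM, with TMM factors) unless another scale is named, group means and shares are given ± SD over the group's hearts (n = 10, 10, 5 and 4 as above), fold changes are on the log2 scale, shown ± SE, and each adjusted p comes from edgeR's quasi-likelihood test over all tested genes, with a threshold of 0.05.

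The libraries held 3207497 to 16853646 counts, with 5 above 10000000 (PBS_GFP 1 and 2, and C26_GFP 4, 5 and 6). The mean level of 5 atrial markers was above 5 on the log2 CPM scale in 8 hearts: 3 of 10 C26_REVERBa, 3 of 10 C26_GFP, 1 of 5 PBS_REVERBa and 1 of 4 PBS_GFP hearts. All 9 cardiomyocyte markers were present in each group, and the 7 skeletal muscle markers summed to at most 2.89 CPM in any heart. In bulk heart RNA, fewer cells of a type and less RNA per cell cannot be told apart. In C26_GFP against PBS_GFP hearts, 5 of 9 cardiomyocyte markers fell and 1 rose, and their summed level ranged over 24688 to 35839 CPM against 32620 to 37384 CPM. In the same comparison, 3 of 8 macrophage markers rose and none fell, with sums of 239 to 358 CPM in C26_GFP hearts and 186 to 222 CPM in PBS_GFP hearts. Of 7 fibroblast markers 2 rose and none fell (sums of 1031 to 1577 CPM in C26_GFP and 959 to 1198 CPM in PBS_GFP hearts), and of 7 endothelial markers 2 rose and 1 fell. Of 6 tested hepatocyte markers 2 fell, with sums of 13.9 to 65.2 CPM in C26_GFP hearts and 1.87 to 120 CPM in PBS_GFP hearts. None of the tested smooth muscle, adipocyte or atrial markers passed there. In C26_REVERBa against C26_GFP hearts, 1 of 9 cardiomyocyte markers rose (Myh6), while 2 of 8 macrophage and 1 of 7 fibroblast markers fell. The cardiomyocyte sums had medians of 35828 CPM in C26_REVERBa and 30755 CPM in C26_GFP hearts. In C26_REVERBa against PBS_REVERBa hearts, 3 of 8 macrophage and 1 of 7 fibroblast markers rose, 1 of 7 endothelial markers fell, and no cardiomyocyte marker passed. The part of these shifts in the results below was not tested.

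**Figure D1:**
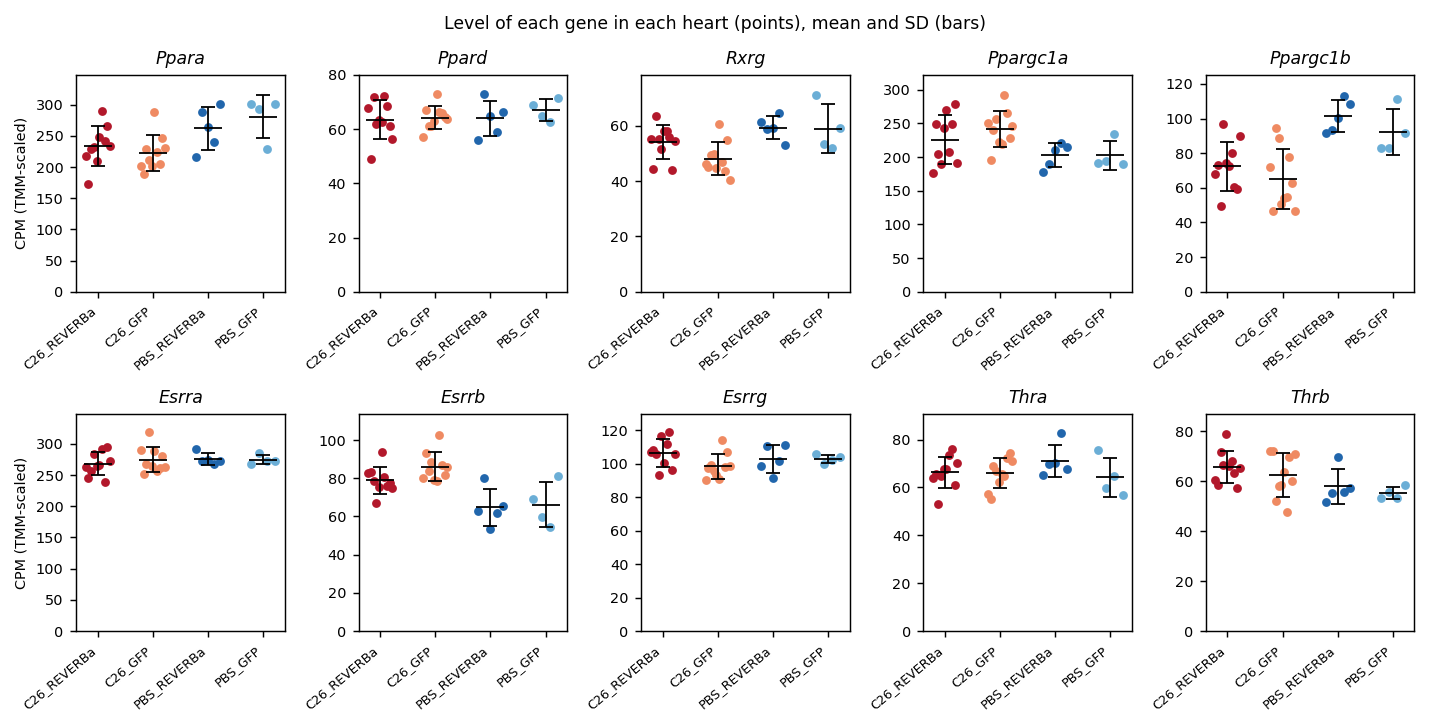
CPM of the 10 genes (vertical axis, from 0) in each heart (points) by group, with the group mean and SD (black bars), n = 10, 10, 5 and 4 from left to right. Ppargc1b is lower and Esrrb higher in tumour-bearing hearts of both vectors, with overlapping points; group means of Esrra lie between 268 and 276 CPM.

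Of the genes that passed, Esrrb and Rxrg have a RefSeq promoter (GRCm38.p6) that ends where the counted gene model starts. These 250 bases upstream of the start are shown because Esrrb was the gene that rose and Rxrg fell; each gene has 1 other start in the table, 60527 bases downstream for Esrrb and 19903 bases downstream for Rxrg, shown as well. The sequences run 5′ to 3′ on the plus strand, with matches to the searched motifs in capitals.
Esrrb, counted start, chr12:86360867-86361116: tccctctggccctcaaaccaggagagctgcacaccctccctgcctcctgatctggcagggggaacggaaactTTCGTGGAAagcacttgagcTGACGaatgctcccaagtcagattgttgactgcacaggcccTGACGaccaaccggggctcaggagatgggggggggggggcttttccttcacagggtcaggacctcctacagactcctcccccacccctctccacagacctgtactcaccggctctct
Esrrb, downstream start, chr12:86421394-86421643: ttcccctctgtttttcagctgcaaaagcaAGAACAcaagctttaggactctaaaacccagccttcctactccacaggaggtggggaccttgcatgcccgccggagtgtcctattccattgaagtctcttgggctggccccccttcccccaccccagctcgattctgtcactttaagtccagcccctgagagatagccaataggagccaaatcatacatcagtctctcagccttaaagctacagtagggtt
Rxrg, counted start, chr1:167598112-167598361: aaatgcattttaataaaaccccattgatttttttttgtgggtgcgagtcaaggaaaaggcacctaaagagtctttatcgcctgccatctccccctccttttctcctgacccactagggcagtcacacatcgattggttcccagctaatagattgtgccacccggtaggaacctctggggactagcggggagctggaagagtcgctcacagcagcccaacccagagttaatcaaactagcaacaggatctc
Rxrg, downstream start, chr1:167618015-167618264: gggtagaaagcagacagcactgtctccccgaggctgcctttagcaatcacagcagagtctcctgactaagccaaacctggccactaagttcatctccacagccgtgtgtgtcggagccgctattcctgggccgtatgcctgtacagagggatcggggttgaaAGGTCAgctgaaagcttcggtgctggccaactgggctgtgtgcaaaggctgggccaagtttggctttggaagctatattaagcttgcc
The capitals in the counted promoter of Esrrb mark TTCNNNGAA, the palindrome that STAT factors bind, and TGACG, the core of the cyclic AMP response element, which occurs there at 2 places. In its downstream promoter they mark AGAACA, the core of the glucocorticoid receptor site. In the downstream promoter of Rxrg they mark AGGTCA, the core hexamer of many nuclear receptor sites. The counted promoter of Rxrg held none of the searched motifs. These were, on both strands, AGGTCA, its extension TNAAGGTCA bound by estrogen-related receptors, its direct repeats spaced by 1 and by 4 bases (DR1 and DR4), the REV-ERB and ROR element, TGACG and the full palindrome that contains it, the E-box CACGTG, the STAT palindrome TTCNNNGAA, and the glucocorticoid receptor core AGAACA. The core AGGTCA also lies inside the estrogen-related, REV-ERB and repeat motifs. On either strand, TTCNNNGAA occurs in 7.02%, TGACG in 17.8%, AGAACA in 16.1% and AGGTCA in 14.0% of 32851 mouse promoters of the same length. These matches are letters in a window and no evidence of binding.

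Levels differed far more between the 10 genes than between groups. On the scale of CPM per kilobase of counted length, Esrra (NM_007953, chromosome 19, 6910977 to 6921808, minus strand, mm10) had the highest level, 124 ± 7.50 (SD over 29 hearts), and it lay above Ppargc1a, next in order, in 29 of 29 hearts. Ppargc1a at 34.7 ± 4.92 and Ppara at 33.5 ± 5.07 CPM per kilobase did not separate, with Ppargc1a higher in 16 of 29 hearts. Thra followed at 29.7 ± 2.95 and Rxrg at 25.2 ± 3.46 CPM per kilobase. Ppargc1b at 21.2 ± 5.42, Ppard at 19.98 ± 1.74, Esrrg at 19.1 ± 1.46 and Esrrb at 17.9 ± 2.71 CPM per kilobase lay within each other's spread. Thrb was lowest at 10.3 ± 1.29 CPM per kilobase, below Esrrb in 29 of 29 hearts. The median tested gene had 9.09 CPM per kilobase, so even Thrb was above 53.6% of tested genes, and Esrra was above 96.5%. This order, and the shares below, rest on 1 counted length per gene (2192 bases for Esrra, 7207 for Ppara), with its transcripts not separated. In CPM, not scaled to length, group means were 268 to 276 for Esrra and 223 to 281 for Ppara.

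**Figure D2:**
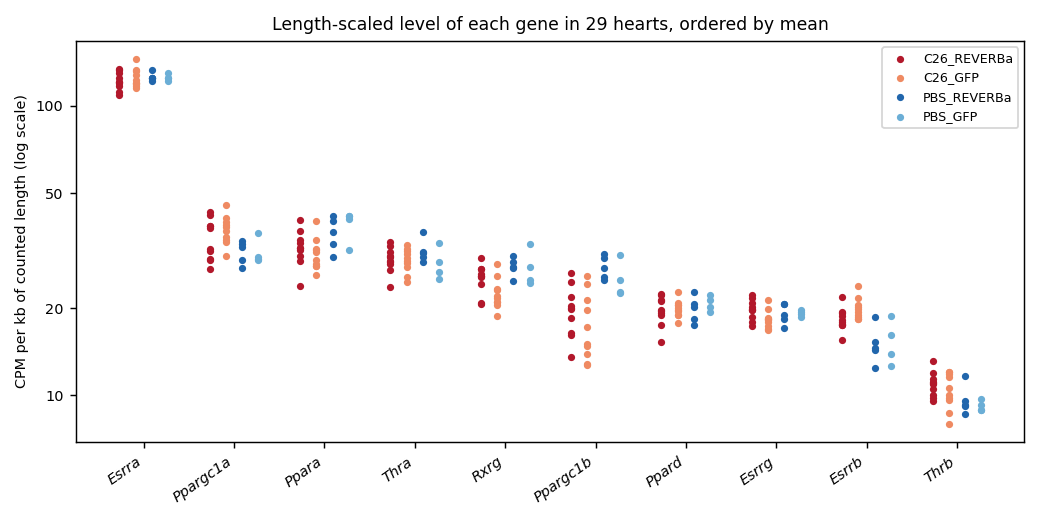
CPM per kilobase of counted length (vertical axis, log scale) of the 10 genes in 29 hearts (points), ordered by mean and coloured by group. Esrra stands above the rest in every heart, and Thrb has the lowest mean.

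PPARα is the main fatty acid sensor of the heart. Its gene Ppara (NM_001113418, chromosome 15, 85735564 to 85806851, plus strand) ranged from 188 to 288 CPM in C26_GFP hearts with a median of 218 CPM, and the 4 PBS_GFP hearts had 301, 293, 230 and 301 CPM. All 10 C26_GFP hearts lay under the PBS_GFP median and 7 under the lowest PBS_GFP heart, though the groups overlapped. Ppara fell by 0.34 ± 0.11 on the log2 scale in C26_GFP against PBS_GFP hearts (adjusted p = 0.0168). That call was lost without PBS_GFP 1, 2 or 4 (adjusted p = 0.0700, 0.0545 and 0.0627), without the 5 libraries above 10000000 counts (0.182), and without the 8 hearts high in atrial markers (0.0947). In C26_REVERBa hearts Ppara ranged from 173 to 291 CPM with a median of 233 CPM, against 217, 289, 265, 240 and 301 CPM in PBS_REVERBa hearts. The groups overlapped widely, and the log2 difference was -0.16 ± 0.10 (adjusted p = 0.326). Between the tumour-bearing groups it was 0.07 ± 0.08 for C26_REVERBa against C26_GFP hearts (adjusted p = 0.635).

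Ppard, the gene of the more widely expressed PPARδ (NM_011145, chromosome 17, 28232754 to 28301469, plus strand), averaged 63.5 ± 7.10, 64.2 ± 4.26, 63.9 ± 6.61 and 67.0 ± 3.97 CPM in C26_REVERBa, C26_GFP, PBS_REVERBa and PBS_GFP hearts. Its log2 difference between C26_GFP and PBS_GFP hearts was -0.06, with a 95% interval of -0.22 to 0.10 (adjusted p = 0.608). As a share of the summed CPM per kilobase of the 3 PPAR genes, Ppara made up 54.9% ± 3.19 in C26_REVERBa, 53.5% ± 3.48 in C26_GFP, 58.6% ± 2.28 in PBS_REVERBa and 59.2% ± 2.38 in PBS_GFP hearts. Pparg, the PPAR best known from fat cells, made up 11.6% ± 3.19, 11.8% ± 2.66, 9.29% ± 1.72 and 9.11% ± 1.38 in the same order. Adipocyte markers summed to 14.9 to 530 CPM in C26_REVERBa, 16.6 to 66.6 in C26_GFP, 14.8 to 49.7 in PBS_REVERBa and 12.5 to 43.4 CPM in PBS_GFP hearts, and their part in the Pparg share was not tested.

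RXRγ is the retinoid X receptor found mainly in muscle and brain. Rxrg (NM_009107, chromosome 1, 167598362 to 167639623, plus strand) ranged from 40.2 to 60.5 CPM in C26_GFP hearts with a median of 46.7 CPM, and the PBS_GFP hearts had 71.2, 53.6, 51.9 and 59.3 CPM. In 8 of 10 C26_GFP hearts it was under the lowest PBS_GFP heart, and PBS_GFP 1 stood above all others of its group. Rxrg fell by 0.30 ± 0.10 on the log2 scale (adjusted p = 0.0186), a call lost without PBS_GFP 1 (-0.18, adjusted p = 0.206) and without the libraries above 10000000 counts (-0.25, adjusted p = 0.159). In C26_REVERBa hearts the range was 44.0 to 63.7 CPM with a median of 55.2 CPM, against 61.4, 58.8, 59.2, 64.6 and 52.9 CPM in PBS_REVERBa hearts, a log2 difference of -0.13 ± 0.09 (adjusted p = 0.387). C26_REVERBa against C26_GFP hearts differed by 0.16 ± 0.07 (unadjusted p = 0.0315, adjusted p = 0.158). That value passed without C26_GFP 6, at 0.21 (adjusted p = 0.0432). Of the summed RXR level per kilobase, Rxrg was 27.4% ± 2.0 in C26_REVERBa, 25.1% ± 2.14 in C26_GFP, 29.6% ± 1.21 in PBS_REVERBa and 29.4% ± 2.53 in PBS_GFP hearts, with Rxra the largest part in each group.

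Of the PGC-1 coactivators, Ppargc1b fell with a tumour under both vectors and Ppargc1a did not pass. PGC-1β, a driver of mitochondrial oxidative capacity and lipid metabolism, is encoded by Ppargc1b (NM_133249, chromosome 18, 61298136 to 61400431, minus strand). It ranged from 46.7 to 94.5 CPM in C26_GFP hearts with a median of 59.0 CPM, and the PBS_GFP hearts had 82.9, 83.2, 111 and 91.6 CPM. In 8 of 10 C26_GFP hearts it was below every PBS_GFP heart, while the other two lay inside the PBS_GFP range. The gene fell by 0.49 ± 0.16 on the log2 scale, to 0.71 of the PBS_GFP level (adjusted p = 0.0214), and without PBS_GFP 3, the heart with the highest value, the change was -0.40 (adjusted p = 0.108).

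In C26_REVERBa hearts Ppargc1b ranged from 49.8 to 97.0 CPM with a median of 73.0 CPM, against 91.5, 93.6, 100, 113 and 109 CPM in PBS_REVERBa hearts. All 10 C26_REVERBa hearts were below the PBS_REVERBa median and 9 below its lowest heart. The gene fell by 0.48 ± 0.15 (adjusted p = 0.0475), a value so near the threshold that leaving out a single library ended the call in 17 of 29 cases, with adjusted p up to 0.119 without PBS_REVERBa 5. In those 17 fits the adjusted p was at least 0.0515, and it was 0.0586 with no filter on low counts and 0.0548 with the log2 library total as a covariate. The interaction of tumour and vector was 0.01, with a wide 95% interval of -0.45 to 0.47. Between the vectors Ppargc1b differed by 0.16 ± 0.12 in tumour-bearing hearts and by 0.15 ± 0.19 without a tumour (adjusted p = 0.457 and 1).

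PGC-1α is the inducible coactivator that responds to cold, exercise and fasting. Ppargc1a (NM_008904, chromosome 5, 51454249 to 51553921, minus strand) ranged from 196 to 293 CPM in C26_GFP hearts with a median of 243 CPM, against 192, 194, 235 and 189 CPM in PBS_GFP hearts. All 10 C26_GFP hearts lay above the PBS_GFP median, and the log2 difference of 0.26 ± 0.11 did not pass (unadjusted p = 0.0221, adjusted p = 0.0703). It passed without PBS_GFP 3 or C26_GFP 2 (adjusted p = 0.0379 and 0.0399), in a fit of these 2 groups alone (0.0433) and with the log2 library total as a covariate (0.0482). In C26_REVERBa hearts the range was 177 to 278 CPM with a median of 226 CPM, and the PBS_REVERBa hearts had 179, 190, 211, 221 and 215 CPM, a log2 difference of 0.15 ± 0.10 (adjusted p = 0.365). Counts per gene do not separate the start sites of Ppargc1a.

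Per kilobase, Ppargc1b made up 32.1% ± 6.24 of the summed level of the 3 PGC-1 genes in C26_REVERBa hearts, 27.7% ± 4.89 in C26_GFP, 41.3% ± 1.39 in PBS_REVERBa and 39.2% ± 1.55 in PBS_GFP hearts. This share ran from 21.3% to 35.9% in C26_GFP hearts and from 37.8% to 41.4% in PBS_GFP hearts, without overlap. In the REV-ERBα groups it overlapped, at 23.9% to 42.7% in C26_REVERBa and 39.8% to 43.2% in PBS_REVERBa hearts. The Ppargc1a share was 56.3% ± 5.94, 59.2% ± 4.23, 46.8% ± 1.36 and 48.9% ± 2.25 in C26_REVERBa, C26_GFP, PBS_REVERBa and PBS_GFP hearts. The share was set up after the values of these genes were known and is given with no test.

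**Figure D3:**
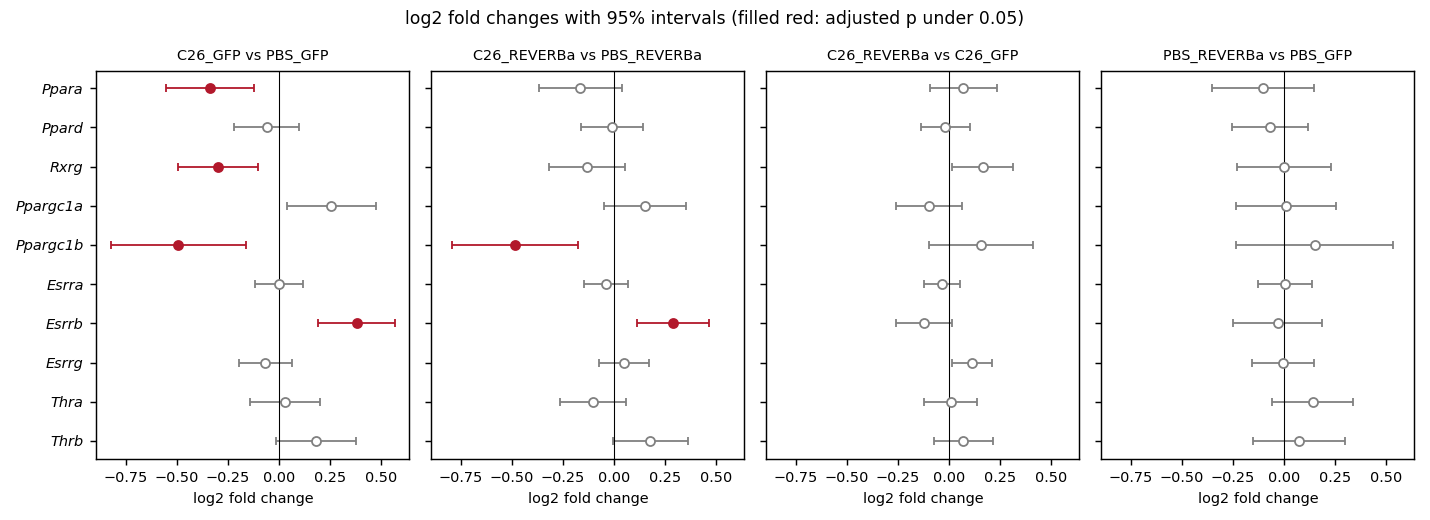
log2 fold change of each of the 10 genes (horizontal axis) with its 95% interval (bars) in 4 comparisons, each panel the group named before "vs" over the group after it; filled red points passed at an adjusted p under 0.05. Points of Ppara, Rxrg, Ppargc1b and Esrrb pass in C26_GFP against PBS_GFP hearts, those of Ppargc1b and Esrrb in C26_REVERBa against PBS_REVERBa hearts, and none in the other two panels.

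Of the estrogen-related receptor genes, Esrrb rose with a tumour under both vectors, and Esrra and Esrrg did not pass. ERRβ is known for its roles in stem cells, placenta and inner ear. Its gene Esrrb (NM_001159500, chromosome 12, 86361117 to 86521628, plus strand) ranged from 78.8 to 103 CPM in C26_GFP hearts with a median of 84.8 CPM, against 69.3, 59.8, 54.5 and 81.1 CPM in PBS_GFP hearts. In 7 of 10 C26_GFP hearts it was above every PBS_GFP heart, and all 10 were above the PBS_GFP median. Esrrb rose by 0.38 ± 0.09 on the log2 scale, 1.30-fold (adjusted p = 0.00278), and passed in each of the 29 fits without 1 library. Without the 5 libraries above 10000000 counts, which leaves 2 PBS_GFP hearts, the change was 0.37 and the adjusted p 0.0648.

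In C26_REVERBa hearts Esrrb ranged from 66.8 to 93.8 CPM with a median of 77.9 CPM, and in PBS_REVERBa hearts it had 62.9, 80.0, 53.4, 61.9 and 65.7 CPM. All 10 C26_REVERBa hearts were above the PBS_REVERBa median and 4 above its highest heart. The rise of 0.29 ± 0.09 (adjusted p = 0.0409) was lost without PBS_REVERBa 1, 3, 4 or 5 or C26_REVERBa 2 or 6, with adjusted p of 0.0650 to 0.130. It was also lost without the 8 hearts high in atrial markers (0.28, adjusted p = 0.0967) and without the libraries above 10000000 counts (0.29, adjusted p = 0.0525). Within groups Esrrb was lower where the atrial marker level was higher (r = -0.52 over 29 hearts after removal of group means). With the atrial level as a covariate, both Esrrb differences still passed. C26_REVERBa against C26_GFP hearts differed by -0.12 ± 0.07 (adjusted p = 0.271).

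ERRα is the main heart estrogen-related receptor for mitochondrial genes. Esrra ranged from 239 to 295 CPM in C26_REVERBa and from 252 to 318 CPM in C26_GFP hearts, against 292, 273, 273, 267 and 273 CPM in PBS_REVERBa and 268, 285, 273 and 273 CPM in PBS_GFP hearts. Its log2 difference between C26_GFP and PBS_GFP hearts had a 95% interval of -0.12 to 0.12 (adjusted p = 0.997), and that between C26_REVERBa and PBS_REVERBa hearts -0.15 to 0.07 (adjusted p = 0.698). These intervals exclude a change as large as that of Esrrb in GFP-vector hearts. The last exon of Esrra shares 50 bases with Trmt112 on the opposite strand, and the strand setting of the counting is unknown, so reads there cannot be told apart. Esrrg, the gene of the constitutively active ERRγ (NM_001243792, chromosome 1, 187609006 to 188214884, plus strand), averaged 106 ± 8.20 CPM in C26_REVERBa, 98.4 ± 7.34 in C26_GFP, 103 ± 8.42 in PBS_REVERBa and 103 ± 2.38 CPM in PBS_GFP hearts. C26_REVERBa against C26_GFP hearts differed by 0.11 ± 0.05 (unadjusted p = 0.0269, adjusted p = 0.146). Esrra made up 76.1% ± 2.06 of the summed estrogen-related receptor level per kilobase in C26_REVERBa, 76.5% ± 2.21 in C26_GFP, 78.6% ± 1.95 in PBS_REVERBa and 78.4% ± 1.71 in PBS_GFP hearts, and Esrrb made up 11.5% ± 1.15, 12.3% ± 1.28, 9.40% ± 1.23 and 9.61% ± 1.60.

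TRα is the main thyroid hormone receptor of the heart. Thra (NM_178060, chromosome 11, 98741873 to 98765111, plus strand) averaged 66.4 ± 6.41 CPM in C26_REVERBa, 65.9 ± 6.23 in C26_GFP, 71.0 ± 6.75 in PBS_REVERBa and 64.2 ± 8.22 CPM in PBS_GFP hearts. Its log2 difference was 0.03 for C26_GFP against PBS_GFP hearts, with a 95% interval of -0.14 to 0.20 (adjusted p = 0.837), and -0.10 for C26_REVERBa against PBS_REVERBa hearts, with an interval of -0.26 to 0.06 (adjusted p = 0.457). Thrb, the gene of TRβ (NM_001113417, chromosome 14, 17660960 to 18038088, plus strand), averaged 65.7 ± 6.48 CPM in C26_REVERBa, 62.6 ± 8.72 in C26_GFP, 58.0 ± 6.92 in PBS_REVERBa and 55.2 ± 2.41 CPM in PBS_GFP hearts. All 10 C26_REVERBa hearts lay above the PBS_REVERBa median for Thrb, but the log2 differences of 0.18 ± 0.09 there and 0.18 ± 0.10 in C26_GFP against PBS_GFP hearts did not pass (adjusted p = 0.232 and 0.159). Per kilobase, Thrb was 27.1% ± 2.86 of the summed thyroid hormone receptor level in C26_REVERBa, 26.3% ± 3.80 in C26_GFP, 23.5% ± 2.55 in PBS_REVERBa and 24.5% ± 2.98 in PBS_GFP hearts.

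Thra lies beside Nr1d1, the gene of REV-ERBα itself, which is transcribed from the opposite strand. The counted model of Thra ends 2820 bases before that of Nr1d1, but the GENCODE transcripts Thra-201 and Thra-203 share 263 and 130 exon bases with Nr1d1. Both transcripts run past the end of the counted model of Thra, so their bases beyond it add no counts to Thra. The value for Thra leaves out that part and does not separate the hormone-binding and non-binding forms of TRα. Nr1d1 in the heart averaged 166 ± 42.9 CPM in C26_REVERBa, 137 ± 41.4 in C26_GFP, 199 ± 33.8 in PBS_REVERBa and 195 ± 39.5 CPM in PBS_GFP hearts. Nr1d1 did not pass in any comparison. Its log2 difference was -0.52 ± 0.21 for C26_GFP against PBS_GFP hearts (adjusted p = 0.0580). For C26_REVERBa against C26_GFP hearts it was 0.28 ± 0.16 (adjusted p = 0.288). Nr1d1 differed little between the vectors without a tumour, by 0.03 ± 0.24. It varied more between animals than Thra did, and its deviations from the group means followed those of Thra (r = 0.73 across 29 hearts), the second highest r to Thra among all tested genes. Both values come from the same libraries. The counted models do not overlap, but with the strand setting unknown, reads of the longer Thra transcripts could be counted for Nr1d1. Such reads cannot be told apart from joint variation.

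For the REV-ERBα vector in tumour-bearing hearts, none of the 10 genes passed, and 2 (Esrrg and Rxrg) had an unadjusted p under 0.05, while 7.20% of all genes passed (3.75% higher, 3.45% lower). That share stands for 931 genes, a count that fell to 295 without C26_REVERBa 7 and was 1778 without C26_REVERBa 9 and 1723 without C26_GFP 6. DESeq2 also called none of the 10, and voom with sample weights called 1, Rxrg (adjusted p = 0.0387). The log2 differences of the 10 genes for C26_REVERBa against C26_GFP hearts ran from -0.12 (Esrrb) to 0.16 (Rxrg), with a median of 0.04. Without a tumour, 0 of 12928 genes passed for PBS_REVERBa against PBS_GFP hearts, with 530 at an unadjusted p under 0.05; DESeq2 called 0 and voom 1. None of the 10 genes had an unadjusted p under 0.05 there, and their log2 differences ran from -0.10 (Ppara) to 0.15 (Ppargc1b). The interaction of tumour and vector passed for 0 genes in all, with 1357 at an unadjusted p under 0.05, 15 calls by DESeq2 and 4 by voom, and for none of the 10. So for Ppara (0.17, 95% interval -0.13 to 0.47) and Rxrg (0.16, -0.11 to 0.44), which passed with a tumour in GFP-vector hearts alone, the difference between the vectors' tumour effects was not shown.

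Of 26 genes known to be switched on by PPARs, 25 were tested. In C26_GFP against PBS_GFP hearts 12 rose and none fell, where 14.2% of all tested genes were higher and 14.0% lower, with a median log2 change of 0.43 beside 0.00 for all genes. The count was 6 without the 5 libraries above 10000000 counts, and 8 to 14 without any 1 library. Slc27a1, a fatty acid transporter, averaged 650 ± 132 CPM in C26_GFP and 341 ± 33.5 CPM in PBS_GFP hearts (log2 change 0.93 ± 0.16, adjusted p = 9.55e-05). Lpl, the lipase that releases fatty acids from circulating triglycerides, averaged 11750 ± 1758 CPM in C26_GFP and 7349 ± 604 CPM in PBS_GFP hearts (0.68 ± 0.13, adjusted p = 0.000253). Acot1, a thioesterase that splits fatty acyl-CoA, rose by 2.11 ± 0.43 (adjusted p = 0.000607). Ppara, as above, was lower in the same hearts.

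In C26_REVERBa against PBS_REVERBa hearts 6 of the 25 rose and none fell (4.05% of all tested genes were higher), with a median of 0.34, and 3 rose without PBS_REVERBa 5. Among the 6 were Lpl, Slc27a1, whose call was lost without PBS_REVERBa 5 (adjusted p = 0.0648), and, named after their values were seen, Ucp2 and Vldlr, whose call was lost in 9 of 29 fits without 1 library (adjusted p up to 0.0940). In C26_REVERBa against C26_GFP hearts 2 fell and none rose, beside 3.45% of all tested genes lower. One was Acot1, by 0.92 ± 0.28 on the log2 scale (adjusted p = 0.0451), a call lost in 19 of 29 fits without 1 library (adjusted p up to 0.105). These comparisons share the C26 groups, so their values are not independent of each other.

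Of 20 genes known to be driven by estrogen-related receptors and PGC-1, 9 fell and none rose in C26_GFP against PBS_GFP hearts, beside 14.0% lower and 14.2% higher among all tested genes, with a median log2 change of -0.16. Cycs, cytochrome c, averaged 252 ± 35.7 CPM in C26_GFP and 397 ± 18.5 CPM in PBS_GFP hearts (-0.66 ± 0.10, adjusted p = 4.07e-05). Idh3a, a subunit of the citric acid cycle's isocitrate dehydrogenase, averaged 427 ± 39.1 CPM in C26_GFP and 588 ± 32.8 CPM in PBS_GFP hearts (-0.46 ± 0.07, adjusted p = 1.92e-05), and Ndufb5, a subunit of respiratory complex I, averaged 60.6 ± 4.44 CPM in C26_GFP and 78.9 ± 6.30 CPM in PBS_GFP hearts (-0.38 ± 0.07, adjusted p = 0.000153). In C26_REVERBa against PBS_REVERBa hearts 1 of the 20 fell, beside 3.19% of all tested genes lower. This was Mfn2, a gene of mitochondrial fusion named after its value was seen, by 0.20 ± 0.06 (adjusted p = 0.0399). Its call was lost in 11 of 29 fits without 1 library (adjusted p up to 0.1004). In C26_REVERBa against C26_GFP hearts 4 rose and none fell, beside 3.75% of all tested genes higher: Dlat by 0.24 ± 0.07 (adjusted p = 0.0403), Cycs by 0.34 ± 0.08, Idh3a by 0.23 ± 0.05 and Cs, citrate synthase, by 0.21 ± 0.05 (adjusted p = 0.0174, 0.0150 and 0.0226). The Dlat call was lost in 14 of 29 fits without 1 library (adjusted p up to 0.0857) and that of Cs without C26_REVERBa 7 (0.0535). The count was 2 without C26_REVERBa 7, and 7 without C26_GFP 6 or C26_REVERBa 9. This comparison shares the C26_GFP hearts with the first one, so their values are not independent of each other. None of the 20 genes passed for the interaction of tumour and vector. The fall of 5 of 9 cardiomyocyte markers in C26_GFP hearts stands beside this list, and its part was not tested.

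Of 14 genes that respond to thyroid hormone, 8 fell and 1 rose in C26_GFP against PBS_GFP hearts, where 14.0% of all tested genes were lower and 14.2% higher, with a median log2 change of -0.33. The count that fell was 4 without PBS_GFP 1 and 4 without the 5 libraries above 10000000 counts. Hr, a corepressor gene induced by thyroid hormone, averaged 24.1 ± 4.42 CPM in C26_GFP and 58.1 ± 3.72 CPM in PBS_GFP hearts (-1.26 ± 0.16, adjusted p = 3.42e-06). Hcn2, a pacemaker channel gene, averaged 44.5 ± 11.3 CPM in C26_GFP and 91.8 ± 10.9 CPM in PBS_GFP hearts (-1.05 ± 0.20, adjusted p = 0.000335). The gene that rose was Myh7, the slow myosin heavy chain that thyroid hormone represses, at 5097 ± 1655 CPM in C26_GFP and 2296 ± 87.8 CPM in PBS_GFP hearts (1.15 ± 0.22, adjusted p = 0.000292). In C26_REVERBa hearts Myh7 averaged 2922 ± 935 CPM, lower than in C26_GFP hearts by 0.80 ± 0.16 on the log2 scale (adjusted p = 0.00843), and 4 genes of the list passed as higher in that comparison, beside 3.75% of all tested genes: Hr by 0.43 ± 0.13, Hcn4, named after its value was seen, by 0.61 ± 0.19 (adjusted p = 0.0451 and 0.0480), Thrsp by 0.57 ± 0.17 and Myh6, the fast myosin heavy chain, by 0.28 ± 0.09 (adjusted p = 0.0389 and 0.0437). Of the 29 fits without 1 library, the call was lost in 18 for Hr, 21 for Hcn4, 11 for Thrsp and 14 for Myh6, with adjusted p up to 0.1002, 0.106, 0.0724 and 0.0927, and the number of genes that passed as higher ran from 0 to 8. Against PBS_REVERBa hearts, 1 gene of the 14 fell in C26_REVERBa hearts, beside 3.19% of all tested genes lower. This was Hr, by 0.64 ± 0.16 (adjusted p = 0.0143), a call lost without PBS_REVERBa 2 or 5 (adjusted p up to 0.0562). The receptor genes Thra and Thrb themselves did not pass in any of these comparisons. The comparisons share groups of hearts, so their values are not independent of each other. None of the 14 genes passed for the interaction of tumour and vector.

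**Figure D4:**
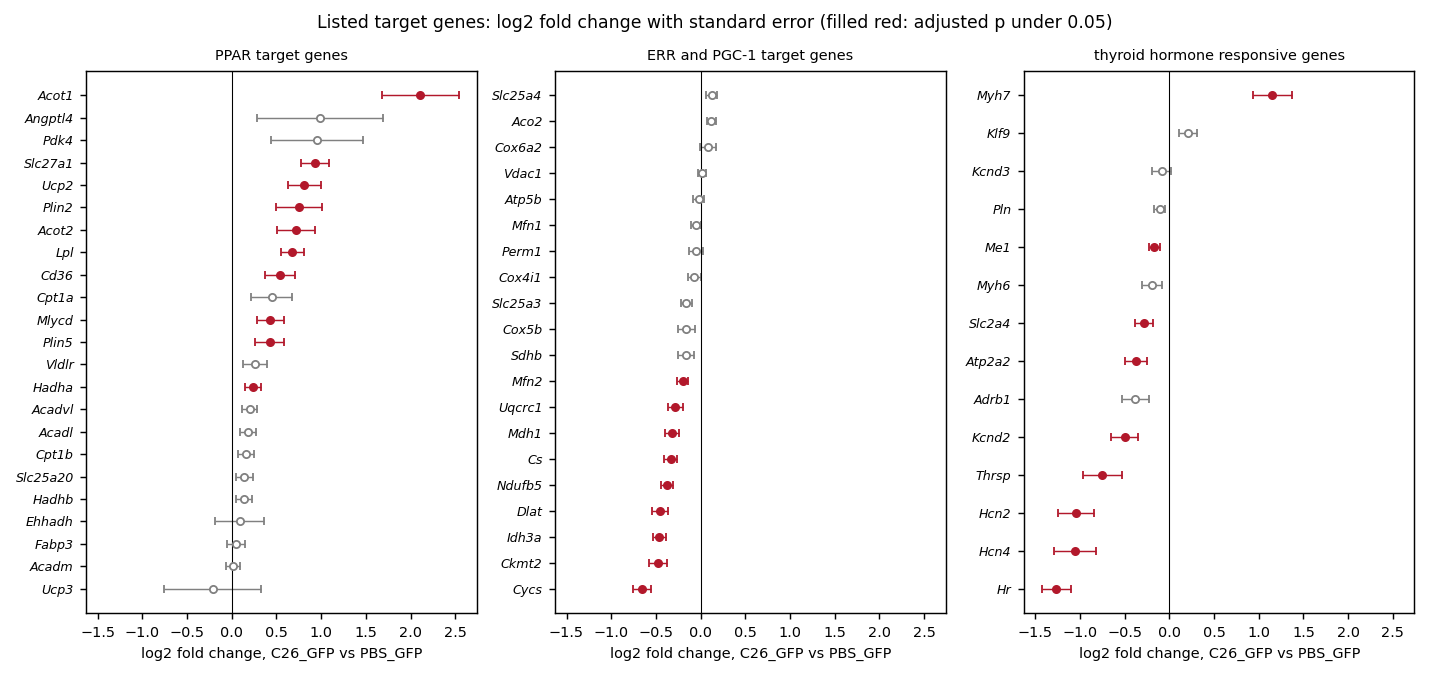
log2 fold change of C26_GFP over PBS_GFP hearts (horizontal axis) with its standard error (bars) for 23 of the 25 PPAR target genes tested, 20 ERR and PGC-1 target genes and 14 thyroid hormone responsive genes (rows); filled red points passed at an adjusted p under 0.05. The 10 red points drawn for the PPAR list lie right of 0, the 9 of the ERR and PGC-1 list left of 0, and of the thyroid hormone list 8 lie left and 1 right.

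Supply of thyroid hormone to the tissue was covered by 7 genes, of which 3 had enough counts. Of these 3, 1 rose and 1 fell in C26_GFP against PBS_GFP hearts, beside 14.2% higher and 14.0% lower among all tested genes. The number that rose was 0 to 1 without any 1 library. Slc16a10, a transporter of aromatic amino acids and thyroid hormone, averaged 50.7 ± 8.21 CPM in C26_GFP and 67.4 ± 2.73 CPM in PBS_GFP hearts (-0.41 ± 0.11, adjusted p = 0.00492). Dio2, the deiodinase that makes the active hormone, averaged 4.65 ± 2.78 CPM in C26_GFP and 4.58 ± 3.33 CPM in PBS_GFP hearts and did not pass (adjusted p = 0.982).

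Of 16 receptor partners and coregulators, 2 rose and 1 fell in C26_GFP against PBS_GFP hearts, 18.8% of the list beside 28.2% of all tested genes: the deacetylase gene Sirt1 by 0.35 ± 0.09, the coactivator gene Ncoa3 by 0.27 ± 0.09 and its relative Ncoa2 by -0.14 ± 0.05 (adjusted p = 0.00617, 0.0209 and 0.0378). The Ncoa3 call was lost without PBS_GFP 2 or 3 (adjusted p up to 0.139, log2 change down to 0.19) and the Ncoa2 call in 9 of 29 fits without 1 library (adjusted p up to 0.142). None of the 16 passed in C26_REVERBa against PBS_REVERBa or C26_GFP hearts. Among 11 genes of mitochondrial genome transcription and replication 1 rose and 1 fell in C26_GFP against PBS_GFP hearts, 18.2% beside 28.2% of all tested genes. Tfam, the factor that packages and transcribes mitochondrial DNA, averaged 47.7 ± 5.93 CPM in C26_GFP and 66.1 ± 0.798 CPM in PBS_GFP hearts (-0.47 ± 0.08, adjusted p = 0.000170), and Yy1 rose by 0.24 ± 0.07 (adjusted p = 0.0130), a call lost without PBS_GFP 3 (0.0596). In C26_REVERBa against C26_GFP hearts 2 of the 11 rose, 18.2% beside 7.20% of all tested genes that passed, and 0 to 2 without any 1 library. Tfam differed by 0.21 ± 0.07 and Gabpa, a nuclear respiratory factor subunit, by 0.14 ± 0.04 (adjusted p = 0.0430 and 0.0369). These calls were lost in 14 and 9 of 29 fits without 1 library, with adjusted p up to 0.0812 for Tfam and 0.0782 for Gabpa. The comparisons share the C26_GFP hearts, so the Tfam values are not independent of each other. None of the 11 genes passed for the interaction of tumour and vector.

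Of 15 kinases and factors that regulate PGC-1α, 3 rose and 3 fell in C26_GFP against PBS_GFP hearts, 40% of the list beside 28.2% of all tested genes. Without the 5 libraries above 10000000 counts 1 rose and 1 fell. Prkaa2, the catalytic subunit of AMP-activated kinase that predominates in muscle, averaged 310 ± 38.1 CPM in C26_GFP and 426 ± 17.4 CPM in PBS_GFP hearts (-0.46 ± 0.08, adjusted p = 0.000180), and its partner subunit Prkab2 fell by 0.36 ± 0.07 (adjusted p = 0.000641). Crtc2, a coactivator of CREB, rose by 0.34 ± 0.08 (adjusted p = 0.00287). In C26_REVERBa against C26_GFP hearts Mef2c, a muscle transcription factor, rose by 0.27 ± 0.06 and Hdac5, which holds MEF2 factors silent, fell by 0.21 ± 0.05 (adjusted p = 0.0130 and 0.0169).

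Of 35 other nuclear receptors, 27 were tested, and 5 rose and 6 fell in C26_GFP against PBS_GFP hearts, 18.5% and 22.2% of those tested beside 14.2% and 14.0% of all tested genes. Without the 5 libraries above 10000000 counts 2 rose and 1 fell, and the number that fell was 2 without PBS_GFP 2 or 3 and 3 without PBS_GFP 1 or C26_GFP 1, 4, 7 or 10. Nr3c1, the glucocorticoid receptor, averaged 169 ± 24.7 CPM in C26_GFP and 242 ± 3.03 CPM in PBS_GFP hearts (-0.52 ± 0.09, adjusted p = 5.97e-05). Nr1h3, the sterol receptor LXRα, rose by 0.78 ± 0.13 (adjusted p = 8.62e-05). In C26_REVERBa against C26_GFP hearts 2 rose and 3 fell, 7.41% and 11.1% of those tested beside 3.75% and 3.45% of all tested genes. The number that fell was 1 without C26_REVERBa 7 and 6 without C26_REVERBa 9. Nr4a1, an immediate early receptor, fell by 1.60 ± 0.33 on the log2 scale, at 30.0 ± 11.9 CPM in C26_REVERBa and 92.4 ± 68.7 CPM in C26_GFP hearts (adjusted p = 0.0104). Nr1h3 fell by 0.37 ± 0.09, and Nr3c1 and Nr1d2, the gene of REV-ERBβ, rose by 0.27 ± 0.07 and 0.28 ± 0.07 (adjusted p = 0.0215, 0.0168 and 0.0215). The Nr1h3 call was lost without C26_REVERBa 7 (adjusted p = 0.0552). For Nr3c1 and Nr1h3 the comparisons share the C26_GFP hearts, so their values are not independent of each other. None of the 27 tested receptors passed for the interaction of tumour and vector.

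Of 45 pairs of the 10 genes, 1 passed over 29 hearts after removal of group means: Ppara and Ppard (Pearson r = 0.66, permutation p = 0.00034, adjusted p = 0.0153; Spearman rho = 0.52, permutation p = 0.00715, adjusted p = 0.235). Without the 2 hearts farthest from the median r was 0.48, and without the libraries above 10000000 counts 0.64 over 24 hearts, where no pair passed. The next pair, Esrrb and Esrrg, had r = 0.47 (permutation p = 0.00682, adjusted p = 0.153), and Ppard and Rxrg had r = 0.43 (permutation p = 0.0205, adjusted p = 0.274). The most negative pair was Esrra and Esrrg at r = -0.45 (permutation p = 0.0244, adjusted p = 0.274).

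**Figure D5:**
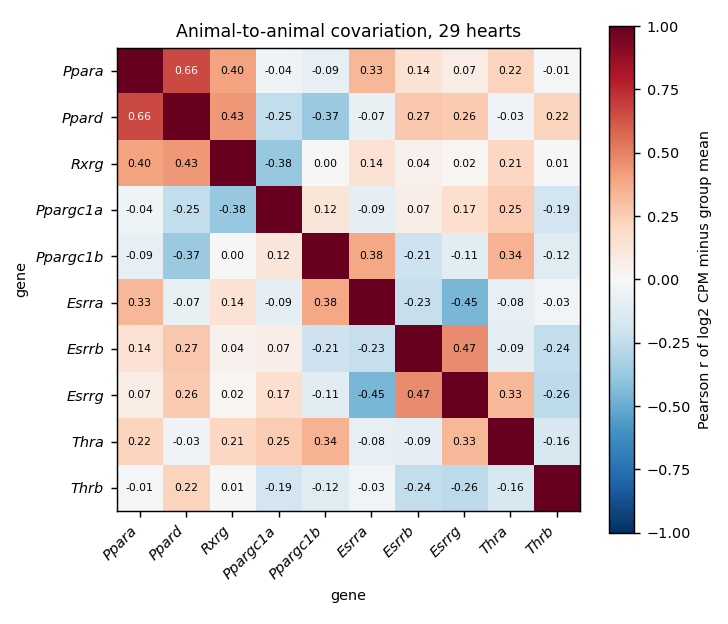
Pearson r (colour and printed value, scale -1 to 1) of log2 CPM minus the group mean for each pair of the 10 genes (rows and columns) over 29 hearts. The darkest cell off the diagonal is Ppara with Ppard at 0.66.

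For each of the 10 genes, the genes closest to it were taken as those with the highest r among all tested genes. This r was computed over the 29 hearts after removal of group means. The closest genes all lay outside the 10. Since far more tested genes lie outside the 10 than within, this cannot show whether the 10 vary together. The r values are a description over libraries that share depth and tissue composition. For Esrrb the closest was Slc6a8, the creatine transporter gene (r = 0.82), and for Rxrg they were Fsd2, Pkm, the pyruvate kinase gene, and Dlat, a pyruvate dehydrogenase subunit (r = 0.85, 0.83 and 0.81). Ppara was closest to Ralgapa2 (r = 0.80), Ppard to Usp12 (0.72), Ppargc1a to Fam21 (0.79), Ppargc1b to Alpk1 (0.71), Esrra to Fam174a (0.73), Thra to the cohesin gene Rad21 (0.73) and Thrb to Otud4 (0.75). Esrrg was closest to Cdh5, the cadherin of endothelial cells (r = 0.78), followed by Abcc4 (0.77) and the pericyte gene Rgs5 (0.74). The 7 endothelial markers summed to 1016 to 1249 CPM in C26_REVERBa, 1020 to 1214 in C26_GFP, 1083 to 1391 in PBS_REVERBa and 1168 to 1249 CPM in PBS_GFP hearts, and their part in the Esrrg values was not tested.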

How the data were processed

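Hearts of 29 mice were measured by RNA sequencing of total RNA. The deposited file holds raw counts for each RefSeq gene, and per the file headers it also gives the length in bases over which a gene was counted. Per the labels' protocols a stranded kit was used without selection of polyadenylated RNA. The submitters' processing notes list the mm10 build and the tools STAR 2.4.2a and DESeq2 1.24.0, with no roles. The sources used here do not give the counting tool or its strand setting. Of its columns of counts, 1 matched no label and was not used. Starts were raised by 1, since 11362 of 20236 accessions matched the RefSeq table of GRCm38.p6 that way and 722 as given.

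The 10 genes, the gene lists and the tests were chosen with earlier results of these data known. Counts were fitted in R 4.3.3 with edgeR 4.0.16: filterByExpr (minimum count 10, minimum total 15), TMM factors and glmQLFit on 29 libraries with 4 group means, with two-sided Benjamini-Hochberg adjusted p-values over 12928 genes. Standard errors are the log2 fold change divided by the square root of F. The edgeR p-values weigh each group difference against the spread between hearts. Each library came from a separate animal, so spread between animals and between libraries cannot be told apart. Pair correlations used log2 CPM (prior count 2) minus group means, with 100000 two-sided permutations within groups, adjusted over 45 pairs. Named genes were the 10, up to 3 per list with the smallest p for the tumour in GFP-vector hearts and up to 3 for the REV-ERBα vector in tumour-bearing hearts, the 3 closest genes to each of the 10, and overlapping neighbours. Myh6 is also a cardiomyocyte marker. Some single genes are not reported here. Promoters came from RefSeq; 8 of the 10 genes had one, and those of Ppargc1b and Thra were not looked for elsewhere. The procedure was tested on simulated data. Alternatives were RLE and upper quartile scaling, limma 3.58.1 voom with sample weights, DESeq2 1.42.0, a replicate block, other filters, the compared groups alone, depth and atrial level as covariates, and leaving out libraries. Libraries of 406 pairs all differed by more than counting noise (chi-square over its degrees of freedom at least 2.73).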

Additional observations from a re-analysis of the deposited data

Results flagged for a closer look

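Of 40 sets of hearts (10 genes in 4 groups), 4 held a heart far from the others of its group, where chance gives about 1 in 20 sets. In PBS_GFP 3, Ppara was lowest, at 229.5 CPM with the nearest heart at 292.8 CPM, and Ppargc1a was highest, at 235 CPM with the nearest at 194 CPM. Esrra in PBS_REVERBa 1 was at 291.6 CPM, with the nearest heart at 273.4 CPM. Thra in PBS_REVERBa 4 was at 82.6 CPM, with the nearest at 70.1 CPM.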

How the results depend on the processing

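The main fit gave 98 single-gene values, each for 1 gene in 1 comparison, so a gene can count more than once. Of their 4106 values under the alternatives, 3902 kept their call, 161 were no longer past the threshold, 43 newly passed, and none that passed changed sign. Of the 10 genes, 4 passed for the tumour in GFP-vector hearts, and 1 did without the 5 libraries above 10000000 counts, which leaves 2 PBS_GFP hearts (all genes 1972); leaving out 1 library gave 2 to 5. For the REV-ERBα vector in tumour-bearing hearts voom gave 1 of the 10, and leaving out 1 library 0 to 1; all genes came to 291 with a replicate block, 327 with the compared groups only, 1772 with voom, and 295 to 1778 without 1 library. Without a tumour, all genes came to 1 with the compared groups only, 1 with voom, and 0 to 1 without 1 library. For the tumour in REV-ERBα-vector hearts, 2 of the 10 became 1 with no filter, 1 without the libraries above 10000000 counts, 1 without those high in atrial markers, 1 with the log2 library total as a covariate and 0 with the replicate block, with 0 to 2 when 1 library was left out; all genes came to 450 with the block, and to 476 to 1201 without 1 library. The interaction gave 15 genes with DESeq2 and 4 with voom. Of the 45 pairs, 0 passed by Spearman rho, 0 without the libraries above 10000000 counts, 0 in tumour-bearing hearts alone, and 0 to 2 without 1 library. The causes were not tested. Replicate numbers gave no sign of pairing the samples: of 32 pairs of libraries with the same number, 5 had a correlation of deviations over 0.1 (median -0.02). Other pairs from different groups had a median of 0.01. Whether hearts with the same number shared a batch was not tested. With the block, Ppargc1b had adjusted p = 0.0836 in GFP-vector and 0.162 in REV-ERBα-vector hearts, and Esrrb 0.120 in REV-ERBα-vector hearts. With 4 and 5 hearts in the groups without a tumour, small differences were not detectable.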
